A study of Mus musculus with 9 samples.

Results

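The troponin isoform genes encode the calcium switch of striated muscle, and all 8 of them (Tnnc1, Tnnc2, Tnni1, Tnni2, Tnni3, Tnnt1, Tnnt2 and Tnnt3) were taken by name from a table of 24571 gene symbols measured by RNA-seq in hearts of E18.5 mouse embryos. The mice were of the C57BL/6N strain, and the allele, CTCF-R567W, had been made by CRISPR/Cas9 editing. The hearts were wild type, heterozygous or homozygous, with 3 libraries in each of the 3 genotypes and 1 heart in each tube, and no other allele or treatment is named for any group. CTCF binds DNA through zinc fingers and helps to fold chromatin into loops. The allele is carried in the germ line, so cells outside the heart carry it too, and the number of founder lines is not given in the sources used here.

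Troponin sits on the thin filament with actin and tropomyosin. Troponin C binds calcium, troponin I holds the filament off when calcium is low, and troponin T ties the complex to tropomyosin. Each subunit has isoforms from separate genes: Tnnc1 encodes the troponin C of cardiac and slow skeletal muscle and Tnnc2 that of fast skeletal muscle, Tnni1, Tnni2 and Tnni3 encode the slow skeletal, fast skeletal and cardiac troponin I, and Tnnt1, Tnnt2 and Tnnt3 encode the slow skeletal, cardiac and fast skeletal troponin T. The fetal heart makes the slow skeletal troponin I beside the cardiac one and replaces it around and after birth, so the ratio of Tnni1 to Tnni3 is used as a reading of how far the myocardium has matured.

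The genes lie in 3 linked pairs and 2 single loci in the mouse GRCm38 (mm10) assembly, in the GENCODE annotation. Tnni1 (chr1:135779434-135810989) and Tnnt2 (chr1:135836354-135852260) lie on the plus strand, 25.4 kb apart. Tnnt1 (chr7:4504570-4516382) and Tnni3 (chr7:4518305-4524229) lie on the minus strand, 1.92 kb apart. Tnni2 (chr7:142441808-142444410) and Tnnt3 (chr7:142498836-142516009) lie on the plus strand, 54.4 kb apart. Tnnc1 (chr14:31208312-31211729, plus strand) and Tnnc2 (chr2:164777161-164779967, minus strand) stand alone. The Tnnc1 gene overlaps Nisch and Tnnc2 overlaps Ube2c, each on the opposite strand, Tnnt3 overlaps Prr33 on the opposite strand, and Tnni3 overlaps Dnaaf3 on its own strand. Strand use in the counting is not stated, so reads from such stretches could have been given to either gene. Of the 31-base words in its transcripts, Tnnc1 shared 5.79% with other genes and Tnni3 shared 2.62%, while each troponin gene shared at most 0.0552% with another troponin gene.

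Promoter windows of 300 bases, from 250 before to 50 after the start in RefSeq (GRCm38.p6), were listed for 6 of the 8 genes. A window each of Tnnc1, Tnnt2, Tnni1 and Tnni3 is printed because the results turn on these genes (the first by position where a gene has several starts), 5′ to 3′ on the coding strand, with matches to muscle motifs in capitals. They lie at chr14:31208062-31208361 (plus strand), chr1:135836084-135836383 (plus strand), chr1:135799171-135799470 (plus strand) and chr7:4522479-4522778 (minus strand).
Tnnc1: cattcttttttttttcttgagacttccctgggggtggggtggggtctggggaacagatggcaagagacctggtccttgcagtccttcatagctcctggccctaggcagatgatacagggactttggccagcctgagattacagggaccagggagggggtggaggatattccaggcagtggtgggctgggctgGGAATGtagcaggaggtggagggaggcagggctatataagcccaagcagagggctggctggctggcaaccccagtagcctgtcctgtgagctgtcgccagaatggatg
Tnnt2: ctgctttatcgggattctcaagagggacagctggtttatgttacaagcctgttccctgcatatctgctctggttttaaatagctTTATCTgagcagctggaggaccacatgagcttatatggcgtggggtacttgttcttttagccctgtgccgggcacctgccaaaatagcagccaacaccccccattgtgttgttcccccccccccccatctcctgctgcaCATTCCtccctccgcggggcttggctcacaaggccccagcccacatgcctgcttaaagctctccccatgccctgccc
Tnni1: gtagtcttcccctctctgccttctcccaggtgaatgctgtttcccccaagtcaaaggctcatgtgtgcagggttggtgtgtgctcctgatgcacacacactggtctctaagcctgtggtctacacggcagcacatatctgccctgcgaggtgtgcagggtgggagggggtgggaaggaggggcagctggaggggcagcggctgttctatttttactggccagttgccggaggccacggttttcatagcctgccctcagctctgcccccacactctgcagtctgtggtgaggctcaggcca
Tnni3: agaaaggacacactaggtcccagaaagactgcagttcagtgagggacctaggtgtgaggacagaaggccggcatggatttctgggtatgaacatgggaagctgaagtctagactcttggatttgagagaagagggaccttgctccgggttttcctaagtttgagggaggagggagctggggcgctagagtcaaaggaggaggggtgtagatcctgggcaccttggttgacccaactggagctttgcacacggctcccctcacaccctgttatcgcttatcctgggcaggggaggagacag
The M-CAT element, the binding motif of TEAD factors (CATTCC, searched on both strands, as were all motifs), was found once in the Tnnc1 window, starting 58 bases before the start and on the reverse strand, and once in the printed Tnnt2 window, 27 bases before the start. It is present in 14.7% of all 32851 promoter windows of this length. That Tnnt2 window also held 1 GATA motif (AGATAA or TGATAA, or either with a final G, present in 29.8% of windows) at 166 bases before the start. The second Tnnt2 window (chr1:135836739-135837038) held no match to any motif searched. The printed windows of Tnni1 and Tnni3 held neither motif, nor TATAAA, the CArG box bound by SRF, the MEF2 motif or the CTCF core motif. The CArG box is in 1.63%, the MEF2 motif in 3.19% and the CTCF core in 0.557% of all windows. None of the 8 troponin windows held the CTCF core, and such a match or its absence describes the letters of the window only. The Tnnt1 window held TATAAA (present in 13.6% of windows) at 30 bases before the start.

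The 9 libraries were not alike in what they held beside heart. Summed thymocyte markers reached 581.9 TPM (a level per transcript length, scaled to the library total) in homozygous replicate 3 against at most 2.78 TPM elsewhere. Airway and lung markers summed to 2627 TPM for wild-type replicate 1 and to 1109 TPM for heterozygous replicate 1, and the latter also held liver markers at 4090 TPM. Erythroid markers, from red cells, summed to 11908, 14604 and 2853 TPM in wild-type replicates 1, 2 and 3, to between 5114 and 15542 TPM in the heterozygous group and to between 4305 and 5148 TPM in the homozygous group. The 7 erythroid genes had a median log2 change of -0.68 in homozygous against wild-type hearts. Leaving haemoglobin genes out of the scaling, together with mitochondrial genes, is among the alternatives below. The part of red cells alone in the troponin values was not tested. Xist, expressed from the X chromosome that females silence, was above 1 TPM in 1 wild-type, 3 heterozygous and 1 homozygous library, so the groups were not balanced for sex. Cardiomyocyte markers summed to between 33563 and 36827 TPM in the wild-type and heterozygous libraries, and to 34678, 29827 and 24424 TPM in homozygous replicates 1, 2 and 3. Myl2 and Actc1, the highest of these 9 markers, changed by -0.27 and -0.30 between homozygous and wild-type hearts. The median change of the 9 was -0.01, with 5 of 9 below 0. Over all 13682 genes tested the median log2 change was 0.23 for homozygous against wild-type, 0.08 for homozygous against heterozygous and 0.15 for heterozygous against wild-type hearts. In whole hearts, fewer cells of a type and less RNA per cell cannot be told apart.

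**Figure D1:**
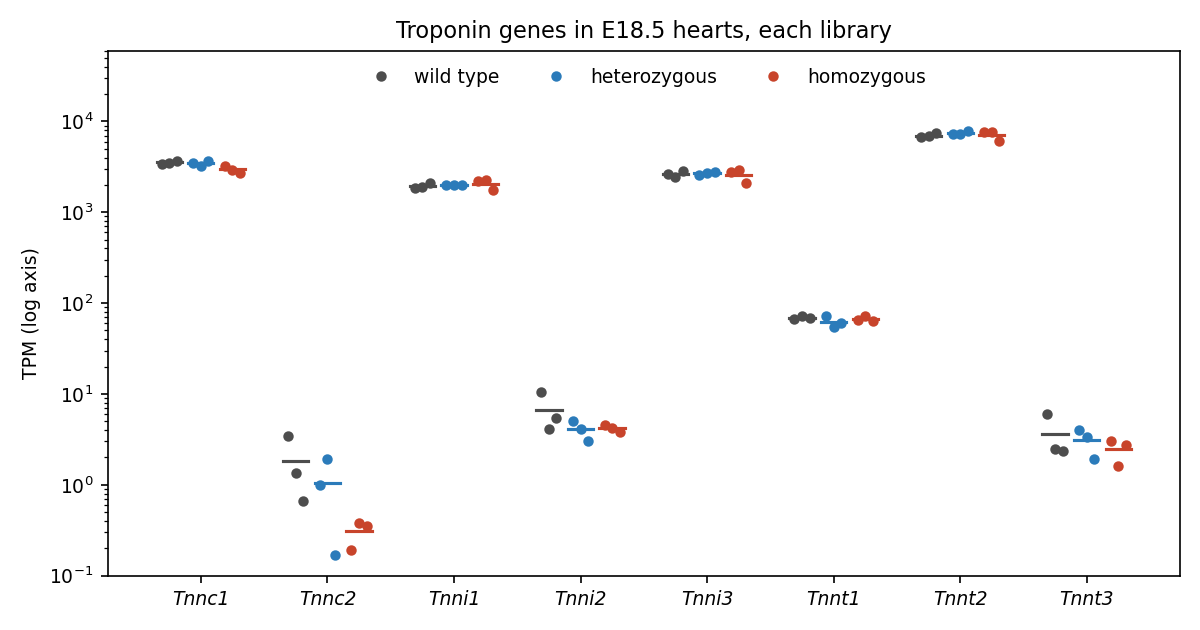
TPM of the 8 troponin genes in each of the 9 libraries on a log axis, with points for libraries, short lines for the group means, and colours for genotype. Tnnt2, Tnnc1, Tnni3 and Tnni1 lie between 1738 and 7759 TPM in every library, Tnnt1 between 54.4 and 72.9 TPM, and the 3 fast skeletal genes at or below 10.4 TPM.

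In hearts of all 3 genotypes the cardiac troponin genes were accompanied by a high level of the slow skeletal troponin I gene, and the fast skeletal genes were low. The order of the levels, Tnnt2, Tnnc1, Tnni3, Tnni1, Tnnt1, Tnni2, Tnnt3 and Tnnc2, was the same in 9 of 9 libraries. Neighbouring genes whose ranges over the libraries did not overlap were Tnnt2 and Tnnc1 (median TPM ratio 2.12), Tnni1 and Tnnt1 (30.7) and Tnnt1 and Tnni2 (14.4). The ranges of Tnnc1 and Tnni3 overlapped, with a ratio within a library of 1.003 to 1.43, as did those of Tnni3 and Tnni1, of Tnni2 and Tnnt3, and of Tnnt3 and Tnnc2. Together the 8 genes took 1.27% to 1.63% of the library TPM, with the lowest share in homozygous replicate 3. Tnnt2 ranked between places 14 and 18 of all genes in every library. Over the 9 libraries the coefficient of variation was 7.86% for Tnnt2, 8.47% for Tnni1, 9.39% for Tnni3, 9.40% for Tnnt1 and 9.80% for Tnnc1, against 43.2% for Tnni2, 43.8% for Tnnt3 and 102% for Tnnc2.

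No troponin gene passed the test between any 2 genotypes (limma, a linear model that pools its estimates of spread across genes, on log2(TPM + 1), Benjamini-Hochberg adjusted p under 0.05 over all genes tested). Comparing homozygous with wild-type hearts, 0 of 8 were called, where 0.336% of all genes tested were, and 2 of the 8 had an unadjusted limma p under 0.05, as did 3426 of all 13682 genes. The background was 0.0439% for homozygous against heterozygous hearts and 0.0146% for heterozygous against wild-type hearts, again with 0 of 8 troponin genes called. A count of 0 among 8 genes is near each of these shares, so the intervals of the changes are given for each gene. The 3 comparisons share libraries in pairs and are not independent of each other. The labels do not say whether the hearts came from separate litters, so the p-values measure the spread between these samples.

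**Figure D2:**
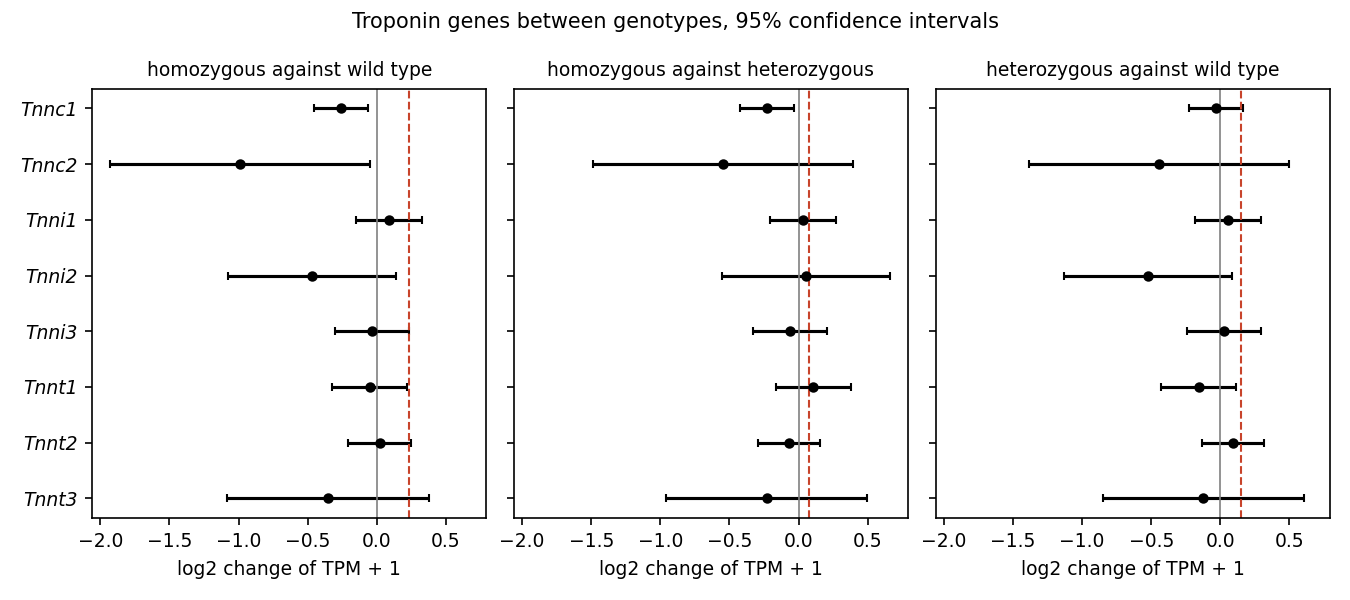
Log2 change of TPM + 1 for each troponin gene in the 3 comparisons (limma, 3 libraries a group), with points for estimates and bars for 95% confidence intervals. The grey line marks 0 and the dashed red line the median change of all genes tested (0.23, 0.08 and 0.15). The Tnnc1 interval lies below 0 in both comparisons with homozygous hearts, and the intervals of the fast skeletal genes are the widest.

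Tnnc1, the calcium sensor of the cardiac thin filament, was the 1 abundant member whose TPM in all 3 homozygous hearts lay below that of every other heart. It stood at 3426, 3491 and 3693 TPM in wild-type replicates 1, 2 and 3, at 3529, 3216 and 3667 TPM for heterozygous hearts, and at 3213, 2938 and 2740 TPM for homozygous hearts. All 3 homozygous libraries lay below all 3 wild-type and all 3 heterozygous libraries, while the wild-type and heterozygous ranges overlapped. The gap to the heterozygous libraries was narrow, at 3213 against 3216 TPM, and no share of all genes was computed for lying below both groups. The group means were 3537 ± 139 TPM for wild-type, 3471 ± 231 TPM for heterozygous and 2964 ± 238 TPM for homozygous hearts (SD, n = 3 each). The log2 change of Tnnc1 between homozygous and wild-type hearts was -0.26 (SE 0.09, 95% confidence interval -0.45 to -0.06, limma adjusted p = 0.134), or -0.49 relative to the median of all genes. Between homozygous and heterozygous hearts it was -0.23 (interval -0.42 to -0.03, limma adjusted p = 0.663). Heterozygous against wild-type hearts it was -0.03 (interval -0.22 to 0.17, limma adjusted p = 0.911). After scaling the libraries by their median ratio the change between homozygous and wild-type hearts was -0.51 and passed the test (limma adjusted p = 0.0267). With quantile normalization it turned to 0.08, and with scaling to cardiomyocyte markers it was -0.04, so the change of this gene depended on what the libraries were scaled to. The marker sum used for that scaling is led by Myl2 and Actc1. Ratios of Tnnc1 to each of them overlapped between these groups, so this scaling is not an independent check of Tnnc1. Without the 3 libraries that held other organs' transcripts the change was -0.22 (limma adjusted p = 0.281).

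Tnnc2, the fast skeletal troponin C gene, was the lowest member and only just passed the filter of 1 TPM, with a mean of 1.05 TPM. It was listed at 3.45, 1.35 and 0.66 TPM for wild-type hearts, at 1, 1.94 and 0.17 TPM for heterozygous hearts and at 0.19, 0.38 and 0.35 TPM for homozygous hearts. The homozygous libraries lay below the wild-type libraries, and the heterozygous libraries spanned both. The log2 change of TPM + 1 between homozygous and wild-type hearts was -0.99 (SE 0.42, interval -1.93 to -0.05, limma adjusted p = 0.183), and it was -0.60 without wild-type replicate 1, the highest library. At so low a level the added constant sets the size, and the change was -1.99 with 0.1 TPM added and -0.34 with 5 TPM added. Tnnc1 and Tnnc2 were thus the 2 troponin genes whose values in homozygous hearts all lay outside, and below, those in wild-type hearts. The group means of Tnnc2 were 1.82 (wild-type), 1.04 (heterozygous) and 0.31 TPM (homozygous). Its passing of the filter therefore rested on the groups where it was higher. The separation of Tnnc2 between homozygous and wild-type hearts was thus partly selected by the filter, and is given as a description. Among all genes tested, 24.7% did not overlap in this comparison and 2.38% did not overlap with homozygous hearts lower. For homozygous against heterozygous hearts Tnnc1 alone of the 8 did not overlap, against 15.9% of all genes in either direction. For heterozygous against wild-type hearts none did, against 13.8% in either direction.

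Tnni1, the slow skeletal and fetal cardiac troponin I gene, and Tnni3, the cardiac one that replaces it, were both high and near each other. Tnni1 stood at 1849, 1879 and 2099 TPM for wild-type, 2020, 2012 and 2013 TPM for heterozygous, and 2228, 2252 and 1738 TPM for homozygous hearts. The homozygous group held both the highest and the lowest Tnni1 value, the lowest in replicate 3. Tnni3 stood at 2622, 2438 and 2871 TPM for wild-type, 2583, 2677 and 2811 TPM for heterozygous, and 2760, 2928 and 2122 TPM for homozygous hearts. Homozygous replicate 3 was again the lowest library, and the groups overlapped. Homozygous against wild-type hearts, the log2 change was 0.09 for Tnni1 (SE 0.11, interval -0.15 to 0.33, limma adjusted p = 0.612) and -0.03 for Tnni3 (SE 0.12, interval -0.30 to 0.24, limma adjusted p = 0.876). Relative to the median of all genes these were -0.15 and -0.26. Scaling to the cardiomyocyte markers brought the Tnni1 change to 0.31 (limma adjusted p = 0.0313). Median-ratio scaling turned it to -0.17 (limma adjusted p = 0.330), the 1 reversal among 26 alternatives, so its direction depended on the scaling. With the marker scaling 5664 of 13682 genes were called and the median change was 0.43, so Tnni1 lay below that median. Tnni2, the fast skeletal gene, was at 10.4 TPM in wild-type replicate 1 and at 3.07 to 5.42 TPM in the other 8 libraries. Its change between homozygous and wild-type hearts was -0.47 (interval -1.08 to 0.14), and -0.14 without wild-type replicate 1.

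Tnnt2, the cardiac troponin T gene and the highest member, stood at 6658, 6877 and 7388 TPM for wild-type, 7317, 7214 and 7759 TPM for heterozygous, and 7742, 7560 and 6031 TPM for homozygous hearts. Homozygous replicate 3 was the lowest and the 3 groups overlapped. The log2 change of Tnnt2 between homozygous and wild-type hearts was 0.02 (SE 0.10, interval -0.20 to 0.25, limma adjusted p = 0.909), which turned to -0.23 with median-ratio scaling. Tnnt1, the slow skeletal gene, stood at 67.6, 72.5 and 68.3 TPM for wild-type, 72.9, 54.4 and 60.6 TPM for heterozygous, and 64.9, 72.8 and 63.8 TPM for homozygous hearts. All 3 groups overlapped, and the change between homozygous and wild-type hearts was -0.05 (SE 0.12, interval -0.32 to 0.22). Tnnt3, the fast skeletal gene, was at 6.07 TPM in wild-type replicate 1 and at 1.61 to 4.01 TPM in the other 8 libraries, with a change of -0.35 (interval -1.08 to 0.38) that was -0.0023 without wild-type replicate 1. Transcripts of 1 gene were summed in these values, so the fetal and adult splice forms of Tnnt2 could not be told apart.

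Wild-type replicate 1 had the highest value of all 9 libraries for each of the 3 fast skeletal genes. The skeletal muscle markers, checked as the other tissue that uses these genes, summed to 171 to 368 TPM, of which Myl1, a light chain also made by the embryonic heart, gave 154 to 352 TPM. Of 17 markers in the table, 5 reached a mean of 1 TPM. Mylpf, a fast light chain of skeletal muscle, was between 1.75 and 6.58 TPM, and at 4.94 TPM in wild-type replicate 1. The skeletal myosin gene Myh8 was between 1.93 and 6.24 TPM, Mybpc2 between 1.6 and 4.65 TPM and Pvalb between 0.21 and 2.84 TPM. In wild-type replicate 1 these stood at 2.71, 3.34 and 2.35 TPM. The embryonic skeletal myosin gene Myh3 was at most 0.30 TPM and the satellite cell gene Pax7 at most 0.05 TPM. In wild-type replicate 1 the summed skeletal markers were 288.1 TPM, within the range of the other libraries, while its lung markers were the highest of all. The part of other tissue in the fast skeletal values was not tested.

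The isoform ratios were taken within a library, so a scale factor for the library cancels out of them. The ratio of Tnni1 to Tnni3 was 0.705, 0.771 and 0.731 in wild-type hearts, 0.782, 0.752 and 0.716 in heterozygous hearts, and 0.807, 0.769 and 0.819 in homozygous hearts. The homozygous mean (0.798 ± 0.026, SD, n = 3) lay above the wild-type mean (0.736 ± 0.033) and the heterozygous mean (0.750 ± 0.033), but 1 homozygous library fell just below the highest wild-type library. The log2 ratio differed by 0.12 between homozygous and wild-type hearts (SE 0.05, two-sided exact permutation p = 0.2), by 0.09 between homozygous and heterozygous hearts (SE 0.05, exact permutation p = 0.2) and by 0.03 between heterozygous and wild-type hearts (SE 0.05, exact permutation p = 0.7). With 3 libraries against 3 the smallest p this test can give is 0.1. Tnni1 thus held 41.3% to 43.5% of the troponin I transcripts in wild-type hearts, 41.7% to 43.8% in heterozygous hearts and 43.4% to 45.0% in homozygous hearts, with Tnni2 at no more than 0.233%.

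The ratio of Tnnt1 to Tnnt2 was near 1% everywhere, at 0.0101, 0.0105 and 0.00924 in wild-type, 0.00997, 0.00754 and 0.00781 in heterozygous, and 0.00838, 0.00963 and 0.0106 in homozygous hearts. The 3 groups overlapped. The log2 ratio differed by -0.07 between homozygous and wild-type hearts (SE 0.11, exact permutation p = 0.7), by 0.18 between homozygous and heterozygous hearts (SE 0.16, exact permutation p = 0.3) and by -0.25 between heterozygous and wild-type hearts (SE 0.14, exact permutation p = 0.2). Tnnt2 supplied 98.9% to 99.2% of the troponin T transcripts, and Tnnc1 between 99.90% and 99.995% of those of troponin C. The genotypes thus overlapped in both slow skeletal to cardiac ratios. Between homozygous and wild-type hearts the log2 difference of Tnni1 to Tnni3 stayed above 0 under all 11 alternatives tried for it. It ranged from 0.07 to 0.15, with an exact permutation p of 0.2 or more. The difference of Tnnt1 to Tnnt2 changed sign under 1 of 11.

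**Figure D3:**
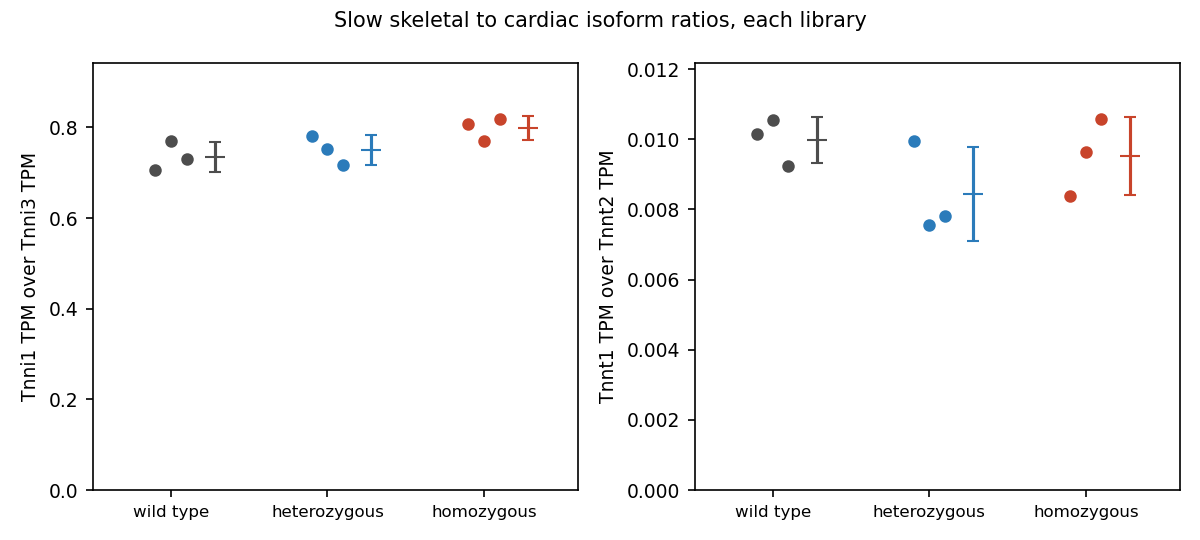
Ratio of Tnni1 to Tnni3 TPM (left) and of Tnnt1 to Tnnt2 TPM (right) in each library, both axes from 0, with points for libraries and the mean ± SD beside them (n = 3 a genotype). The troponin I ratio lies between 0.705 and 0.819 and the troponin T ratio between 0.00754 and 0.0106, and the genotypes overlap in both.

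The share of troponin C among all troponin transcripts was lowest in homozygous hearts. Troponin C took 23.4%, 23.7% and 22.9% of all troponin TPM for wild-type hearts, 22.7%, 21.2% and 22.5% in heterozygous hearts, and 20.1%, 18.6% and 21.6% in homozygous hearts. The homozygous libraries lay below the wild-type libraries without overlap and overlapped the heterozygous ones. The ratio of Tnnc1 to Tnnt2 was 0.515, 0.508 and 0.500 in wild-type, 0.482, 0.446 and 0.473 in heterozygous, and 0.415, 0.389 and 0.454 in homozygous hearts. Both mutant groups lay below wild type without overlap, while homozygous and heterozygous values overlapped. The log2 ratio of Tnnc1 to Tnnt2 was lower by 0.28 in homozygous than in wild-type hearts (0.825-fold, SE 0.07), and of the 13681 genes tested other than Tnnt2, 3.14% lay below wild type without overlap when set against Tnnt2 in the same way, and 3.26% did in heterozygous hearts. These ratios with Tnnc1 were chosen after its values were seen, so they are given with no test.

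Set against other members, Tnnc1 gave a ratio to Tnni1 of 1.85, 1.86 and 1.76 in wild-type, 1.75, 1.60 and 1.82 in heterozygous and 1.44, 1.30 and 1.58 in homozygous hearts, with no overlap between homozygous hearts and either other group. Set against Tnni1, 4.75% of the other genes lay below wild type and 5.85% below heterozygous hearts without overlap. The ratio of Tnnc1 to Tnni3 overlapped between homozygous and wild-type hearts (log2 difference -0.22, SE 0.12). The ratio of Tnni1 to Tnnt2 was 0.278, 0.273 and 0.284 in wild-type and 0.288, 0.298 and 0.288 in homozygous hearts, a log2 difference of 0.07 (SE 0.02) with no overlap. Of the 13681 genes other than Tnnt2, 27.3% lay above wild type in this way. The ratio of Tnni3 to Tnnt2 overlapped between all genotypes.

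The same Tnnc1 values did not stand apart from those of the ventricular light chain. The ratio of Tnnc1 to Myl2, which encodes the regulatory light chain of ventricular myosin, was 0.269 to 0.287 in wild-type, 0.269 to 0.286 in heterozygous and 0.271 to 0.290 in homozygous hearts, a log2 difference of 0.02 (SE 0.04) between homozygous and wild-type hearts. Ratios of Tnnc1 to Actc1, the cardiac actin gene, and to Tpm1, the main tropomyosin gene of heart, also overlapped between these groups (log2 differences 0.04 and -0.09). Summed ventricular markers, mostly Myl2 and Myl3, were 17345 to 19055 TPM for wild-type, 17263 to 18416 TPM for heterozygous and 14594 to 16589 TPM for homozygous hearts, the last below both others without overlap. This sum largely repeats Myl2, which changed by -0.27 between homozygous and wild-type hearts. Of the 6 markers 5 lay below 0 (median -0.14), and Hey2 was at 0.47. Atrial markers were 8540 to 10354 TPM for wild-type and 4943 to 11712 TPM for homozygous hearts, with the lowest sum in homozygous replicate 3. The part of the make-up of the heart in the Tnnc1 values was not tested.

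**Figure D4:**
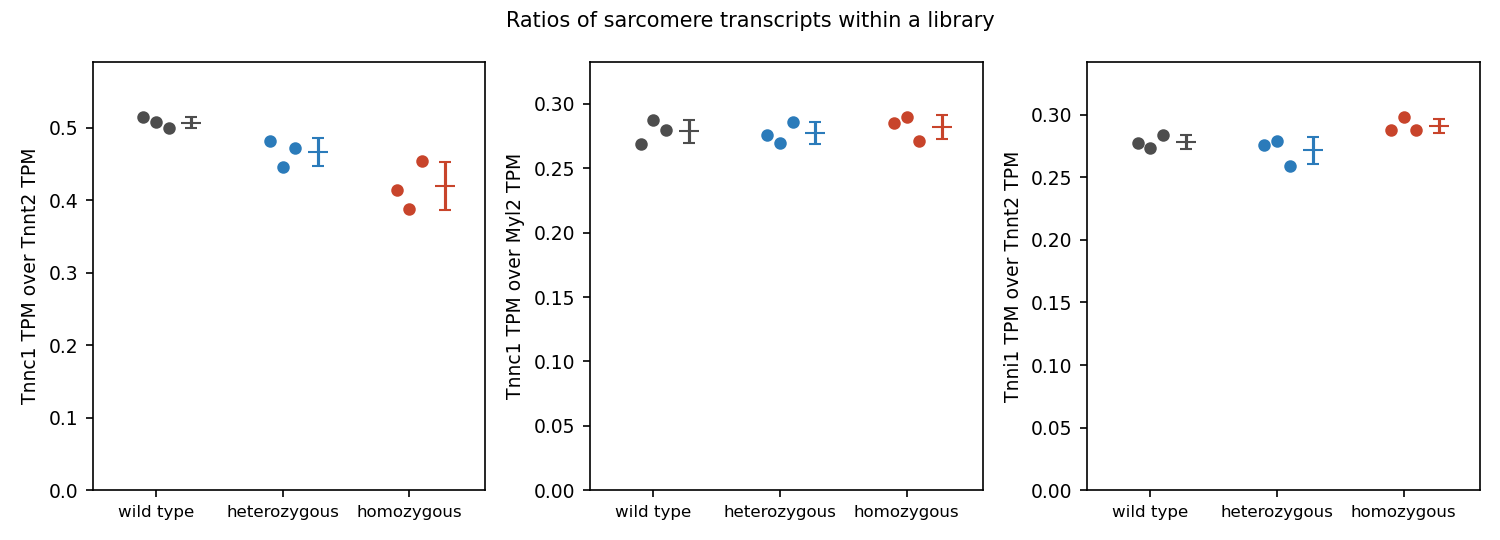
Ratios of TPM within a library for Tnnc1 to Tnnt2 (left), Tnnc1 to Myl2 (middle) and Tnni1 to Tnnt2 (right), all axes from 0, with points for libraries and the mean ± SD beside them (n = 3 a genotype). The Tnnc1 to Tnnt2 ratio is lowest in homozygous hearts (0.389 to 0.454 against 0.500 to 0.515 in wild type), while the Tnnc1 to Myl2 ratio stays between 0.269 and 0.290 in all 9 libraries.

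The genes whose pattern over the 9 libraries was most like that of each abundant member were found by the root mean square difference of centred log2(TPM + 1), among the 9951 other genes whose mean reached 5 TPM. For Tnnc1 these were Mpc1, a carrier of pyruvate into mitochondria (0.03), Mrpl42, a mitochondrial ribosomal protein gene (0.03), and Myl2 (0.04), against a spread of Tnnc1 itself of 0.14. For Tnni1 they were D10Jhu81e, Isca1 and Fh1, and for Tnni3 they were Slc25a11, Idh3g and Sucla2, of which Fh1, Idh3g and Sucla2 encode parts of the citric acid cycle. Mrfap1, Phb2 and Rbx1 were nearest to Tnnt2, and Fam92a, Fis1 and Map2k6 to Tnnt1, at the larger distances of 0.06, 0.08 and 0.09. Tnnt2 was in place 36 for Tnni1, place 42 for Tnni3 and place 431 for Tnnc1. In the other direction, Tnni1 was in place 60, Tnni3 in place 124 and Tnnc1 in place 2109 for Tnnt2. All such likeness is measured over libraries that share one set of hearts and one scaling.

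The partners of troponin on the thin filament gave 1 call in 12 genes in homozygous against wild-type hearts, where 0.336% of all genes were called. Acta1, the skeletal actin gene that the fetal heart also expresses, was 71.1, 79.6 and 66.2 TPM for wild-type and 36.2, 14.7 and 24.9 TPM for homozygous hearts, and fell by 1.56 on the log2 scale (limma adjusted p = 0.0484). Its direction held under all 26 alternatives, but it no longer passed under 15 of them, among them the omission of the 3 libraries with other organs' transcripts (-1.61, limma adjusted p = 0.179). The other 11 did not pass. Among them Actc1 was at -0.30 (limma adjusted p = 0.176), Tpm1 at -0.17 (limma adjusted p = 0.330) and Tpm2 at -0.26 (limma adjusted p = 0.194), and the filament-capping relatives Lmod2 and Lmod3 at -0.69 (limma adjusted p = 0.120) and -0.50 (limma adjusted p = 0.147). Tpm3 at 0.31 (limma adjusted p = 0.156) and Nebl at 0.41 (limma adjusted p = 0.209) lay on the other side of 0. The median change of the 12 genes was -0.10, against 0.23 for all genes. The 8 genes of the perinatal isoform pairs also hold Acta1, which was their 1 call and is not a second result, and their median was -0.16. The ratio of the myosin heavy chain genes Myh7 to Myh6, the fetal and adult ventricular forms in the mouse, was 1.06, 1.07 and 1.004 in wild-type, 1.14, 1.27 and 0.974 in heterozygous and 1.41, 1.25 and 1.49 in homozygous hearts. The homozygous ratios lay above wild type without overlap (log2 difference 0.40, SE 0.08), while the ratios of Myl7 to Myl2 and Myl4 to Myl3, atrial to ventricular light chains, overlapped. The ratio of Acta1 to Actc1 was lower in homozygous than in wild-type hearts without overlap (log2 difference -1.31, SE 0.28). By TPM, 24.7% of all genes did not overlap between these groups, and no share was computed for ratios to Myh6 or Actc1. These ratios are given with no test.

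Genes that act on troponin gave 0 calls, near the shares of all genes called (0.336%, 0.0439% and 0.0146% in the 3 comparisons), so their values are given as a description. Of the kinases that phosphorylate troponin I and the troponin-binding kinase gene Tnni3k, 0 of 7 were called between homozygous and wild-type hearts, with a median change of 0.13. Prkaca, the catalytic subunit of protein kinase A, changed by 0.11 and Tnni3k by -0.03. Of the splicing factors that act on Tnnt2 pre-mRNA, 0 of 6 were called, with a median of 0.29 and with Mbnl1 at 0.51 (limma adjusted p = 0.116) and Ptbp1 at 0.53 (limma adjusted p = 0.122). Of the transcription factors that act on cardiac troponin genes 9 of 10 could be tested and 0 were called, with a median of 0.17, Gata4 at -0.16, Mef2c at 0.29, Nkx2-5 at -0.01 and Srf at 0.12.

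The neighbours of the troponin genes were read because CTCF acts on chromatin over such distances. Within 100 kb of the 8 loci lay 34 tested genes, and 0 of them passed the test in the 3 comparisons, which is near the shares of all genes called (0.336%, 0.0439% and 0.0146%). Their median log2 change, homozygous against wild type, was 0.25, near the 0.23 of all genes, with 7 of 34 below 0, where 81.7% of all genes were above 0. The extremes were Syt8 beside Tnni2 (-1.04, limma adjusted p = 0.371) and Pltp beside Tnnc2 (1.13, limma adjusted p = 0.242). Each of these rested on 1 library, Syt8 on wild-type replicate 3 at 10.3 TPM against at most 0.48 TPM elsewhere and Pltp on homozygous replicate 3 at 36.7 TPM against at most 6.06 TPM elsewhere. Smim4, near Tnnc1, had the lowest adjusted p of the neighbours (0.60, limma adjusted p = 0.123). Nisch, which overlaps Tnnc1 on the opposite strand, changed by 0.21 (limma adjusted p = 0.232), and Ube2c, which overlaps Tnnc2, by -0.22 (limma adjusted p = 0.223). The paired genes changed by 0.09 for Tnni1 and 0.02 for Tnnt2, -0.05 for Tnnt1 and -0.03 for Tnni3, and -0.47 for Tnni2 and -0.35 for Tnnt3. Over the 9 libraries Tnnt2 was in place 36 of the genes most like its neighbour Tnni1, at a distance of 0.05. For Tnni3, its neighbour Tnnt1 was in place 3991, at 0.19, and Tnnt2, on another chromosome, in place 42, at 0.06. The part of linkage in these values was not tested. The Tnni2 and Tnnt3 changes were -0.14 and -0.0023 without wild-type replicate 1.

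**Figure D5:**
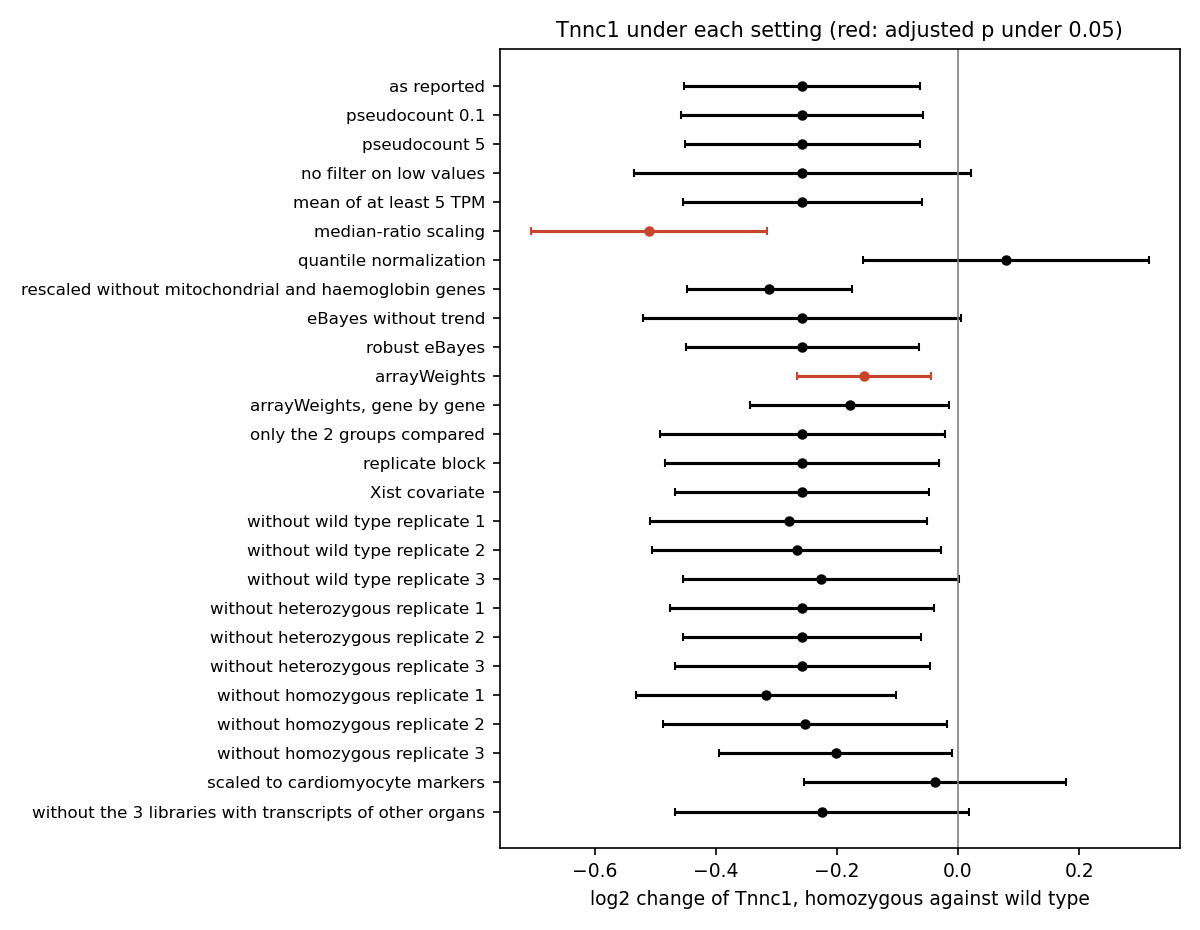
Log2 change of Tnnc1 between homozygous and wild-type hearts as reported and under each alternative that was fitted, with points for limma estimates, bars for 95% confidence intervals and red for an adjusted p under 0.05. The estimates lie between -0.51 and 0.08, and median-ratio scaling and the default library weights give the red points.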

How the data were processed

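RNA from whole E18.5 hearts was captured on poly-A beads and sequenced, and the authors trimmed reads with Trim Galore, aligned them to mm10 with STAR and quantified genes with RSEM. The deposited table gives RSEM's TPM for every gene symbol in each library. The annotation release and strand use are not stated, and no counts were used here, so the depth is unknown and the spread between 3 libraries is the only error available.

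Symbols turned into dates (26) were left out, leaving 24571, and the 13682 genes whose mean reached 1 TPM were fitted together over 9 libraries with limma (3.58.1, R 4.3.3) on log2(TPM + 1), with 1 term per genotype, a mean-variance trend and Benjamini-Hochberg adjustment. The values are not counts, so no count model was used. Isoform ratios were compared by two-sided exact permutation tests. Named genes were the 8 members, list members called or among the first 4 of a list, the 3 most alike genes of 5 members, and genes within 100 kb. Genes outside these rules were named after their values were seen. The members and lists were chosen with earlier results of these data known. The alternatives were 26 other scalings, filters, models and omissions of libraries.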

Additional observations from a re-analysis of the deposited data

How the results depend on the processing

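Of the 26 alternatives, 4 moved the 0 troponin genes called between homozygous and wild-type hearts, and none moved the 0 called in the other comparisons. Median-ratio scaling called 1 (Tnnc1), scaling to cardiomyocyte markers 1 (Tnni1), library weights from arrayWeights 5 (Tnnc1, Tnnc2, Tnni1, Tnni3 and Tnnt2), and weights estimated gene by gene 2 (Tnnc2 and Tnni1). The default weights stopped before they converged, which led to the gene by gene estimate. The scaling to cardiomyocyte markers, the gene by gene weights and the omission of 3 libraries were chosen after seeing the data. Over all genes, 46 were called between homozygous and wild-type hearts, and from 11 (only the compared groups fitted, or without the 3 libraries) to 8755 (arrayWeights) under the alternatives. Median-ratio scaling called 240, of which 201 were lower, the gene by gene weights 5068, scaling to cardiomyocyte markers 5664, and the fit without wild-type replicate 3 called 2170. The cause was not tested.

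Small differences changed sign. Between homozygous and wild-type hearts, Tnnc1 became 0.079 and Tnni3 0.026 with quantile normalization, Tnni1 became -0.17 and Tnnt2 -0.23 with median-ratio scaling, and Tnnt2 became -0.034 when mitochondrial and haemoglobin genes were left out. With arrayWeights Tnni2 became 0.029, Tnni3 0.17 and Tnnt3 0.051, and Tnni3 became 0.13 with the gene by gene weights. Scaling to cardiomyocyte markers gave 0.19 for Tnni3 and 0.17 for Tnnt1, and Tnni3 was 0.10 without the 3 libraries. Leaving out each replicate in turn gave -0.12 to 0.11 for Tnni3 and -0.045 to 0.13 for Tnnt2.

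Between homozygous and heterozygous hearts, quantile normalization gave 0.0077 for Tnnc1, -0.080 for Tnni2, 0.019 for Tnni3, 0.078 for Tnnt2 and -0.0073 for the log2 ratio of Tnni1 to Tnni3. Median-ratio scaling gave -0.056 for Tnni1 and -0.018 for Tnni2, and arrayWeights 0.049 for Tnni3 and 0.040 for Tnnt2, or 0.046 and 0.025 gene by gene. Scaling to cardiomyocyte markers gave 0.040 for Tnnc1, 0.21 for Tnni3 and 0.20 for Tnnt2, the omission of 3 libraries 0.052 for Tnni3 and 0.032 for Tnnt2, and the Xist covariate 0.25 for Tnnt3. Leaving out replicates gave -0.034 to 0.15 for Tnni1, -0.097 to 0.19 for Tnni2, -0.15 to 0.080 for Tnni3 and -0.14 to 0.043 for Tnnt2.

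Between heterozygous and wild-type hearts, Tnnc1 became 0.072 with quantile normalization, and Tnni1 -0.11, Tnni3 -0.14 and Tnnt2 -0.075 with median-ratio scaling. Tnni3 was -0.011 without mitochondrial and haemoglobin genes, -0.017 with the Xist covariate and -0.022 scaled to cardiomyocyte markers. Tnnt3 was 0.21 with arrayWeights and 0.063 without the 3 libraries, where the log2 ratio of Tnni1 to Tnni3 was -0.033. Leaving out replicates gave -0.069 to 0.025 for Tnnc1, -0.029 to 0.089 for Tnni3, -0.31 to 0.23 for Tnnt3 and -0.0030 to 0.062 for the ratio of Tnni1 to Tnni3. The ratio of Tnnt1 to Tnnt2 ranged from -0.15 to 0.019 in this way between homozygous and wild-type hearts.

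With the replicate number as a block, 0 troponin genes were called in each comparison, as without it, and 17, 1 and 1 genes were called over all genes in place of 46, 6 and 2. Same-numbered libraries did not deviate together in every pair (correlations of -0.03 to 0.06 between homozygous and wild-type, -0.03 to 0.02 between homozygous and heterozygous and 0.06 to 0.36 between heterozygous and wild-type libraries), so the numbers were not taken to pair the samples.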
